A study of Arabidopsis thaliana with 12 samples.

Results

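The genes described are 3 enzymes of Arabidopsis thaliana that make chlorophyll or its phytyl tail, or return that tail to use: CHLM (AT4G25080), CHLP (AT1G74470, listed under its locus name) and VTE6 (AT1G78620, likewise). They were chosen with earlier results of these data known, and their rows are those whose platform annotation lists only that 1 gene. Each had 1 such probe (2091 for CHLM, 2360 for CHLP and 1510 for VTE6) among the 692 probes that list 1 gene and the 3439 probes in all, and 0 of the 3 were also listed on a probe shared with other genes. Arrays measured total RNA in 12 samples. The controls are 6 samples labelled WT, of ecotype Columbia 0, and the other 6 are of psae2 in the Columbia 0 background, which the labels describe as a mutant without PSI-E2, a protein of photosystem I. The sources used here give no tissue, plant age, growth condition or kind of mutation.

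CHLM, magnesium protoporphyrin IX methyltransferase, adds a methyl group to the magnesium porphyrin in the chloroplast branch that leads to chlorophyll. CHLP, geranylgeranyl reductase, saturates geranylgeranyl groups to phytyl groups, which form the tail of chlorophyll and the side chain of tocopherol (vitamin E) and phylloquinone. When chlorophyll is broken down, phytol is released and is phosphorylated in sequential steps, and VTE6, phytyl phosphate kinase, carries out the later one, giving the phytyl diphosphate from which tocopherol is made. The transcript of CHLP is thus taken here for new supply of phytyl groups and that of VTE6 for their reuse, though neither process was measured.

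PSAE2, the mutated gene, and its paralog PSAE1 had 0 probes of their own each, so this transcript could not serve as a check of the labels. Numbers 1 to 6 are shared by the groups. Samples 1 and 2 of a genotype deviated together from their group mean, as did 3 with 4 and 5 with 6. Each such set is called a pair here, and its samples may be repeats of 1 sample. Correlations of these deviations were 0.24 to 0.71 within pairs and -0.68 to -0.12 for other samples of a group. Same-numbered samples of WT and psae2 had 0.34 to 0.53. The total deposited intensity of an array was 2972 to 3610, and array medians ran from 0.304 to 0.448, higher in psae2 at 6 of 6 numbers. The number of arrays limits the precision, and p-values measure only the spread between these samples, which may be technical. Because this is RNA of whole samples, fewer cells of a type and less RNA per cell cannot be told apart.

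VTE6 was higher in psae2 than in the WT, and was the only one of the 3 genes to pass the test, which it did in each fit described here but 1. Its deposited intensity, a linear value in arbitrary units, was 0.743 at the lowest, 0.767 at the median and 0.821 at the highest in the 6 WT samples. In the 6 psae2 samples it was 1.21, 1.57 and 1.91 in the same order. All 6 psae2 samples lay above every WT sample, and the groups did not overlap. How many entries separate in this way was counted only on normalized values, where 12.4% did, 6.55% with psae2 as the higher group. As deposited, the WT mean was 0.772 ± 0.0289 and the psae2 mean 1.58 ± 0.282 (SD, n = 6), a ratio of 2.04. The signal lay at 9.18 to 21.7 times the floor of its array, the 5th percentile of the positive values, so no sample rests on a floor value. The WT samples were close together, while psae2 sample 2 was the lowest of its group, at 1.21 against 1.74 in psae2 sample 1 of the same pair.

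After quantile normalization, which puts all arrays on 1 distribution, the log2 level of VTE6 was -0.31 ± 0.15 in WT samples and 0.59 ± 0.27 in psae2 samples (SD, n = 6). The highest WT sample lay at -0.14 and the lowest psae2 sample at 0.13, so the groups did not overlap on this scale either. The difference was 0.91 (SE 0.12), a 1.87-fold higher level with a 95% interval of 1.56 to 2.26 over 12 samples. In limma across all 3009 entries tested the adjusted p was 0.000289 over 12 samples. With the pairs averaged, which leaves 3 values per group, it was 0.0455 with a 95% interval of 1.43 to 2.46-fold. With the pair as a block on top of averaging, the adjusted p was 0.0553 and the call was lost. VTE6 was higher in psae2 at 6 of 6 numbers, by 0.65 to 1.23, and in 3 of 3 pairs, by 0.86, 1.19 and 0.67. Numbers 3 and 4 gave the largest difference, and numbers 2, 5 and 6 the smallest ones.

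**Figure D1:**
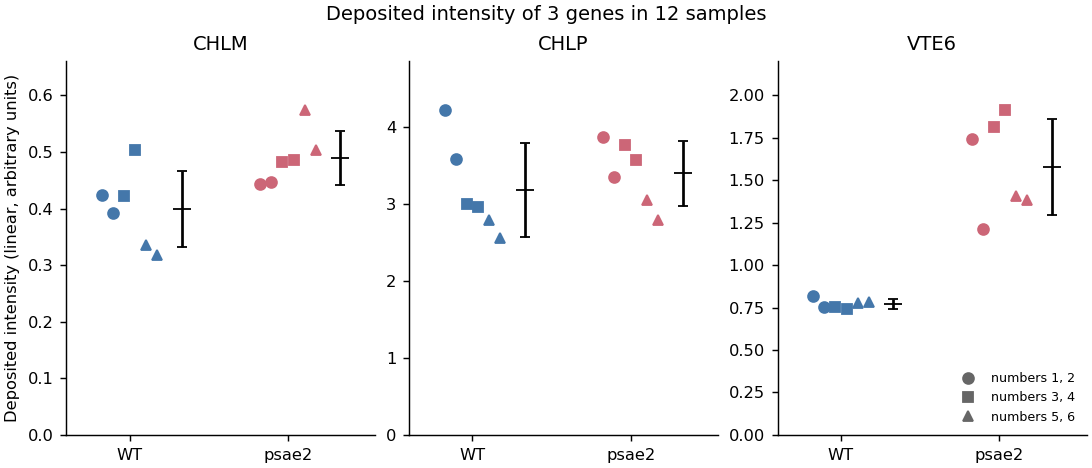
Deposited intensity (linear, arbitrary units) of CHLM, CHLP and VTE6 in each WT and psae2 sample, with marker shapes for the pairs of numbers and bars for the mean ± SD over 6 samples; each panel has its own axis. The VTE6 samples of psae2, at 1.21 to 1.91, lie above all WT samples, at 0.743 to 0.821, while the groups overlap for CHLM and CHLP.

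Of the 3 genes, 1 passed the threshold over 12 samples, VTE6, and it was higher in psae2. Over all entries tested, 22.3% passed over 12 samples, 11.9% as higher and 10.4% as lower. With the number as a block 33.6% passed. Averaging the pairs left 2.63% in either direction and 1.23% as higher, and a block for the averaged pair left 1.46%. A call over 12 samples was therefore common on these arrays, and with pairs averaged it was not. On normalized values, groups that did not overlap over 12 samples were found in 12.4% of all entries, and in 6.55% with psae2 as the higher group. Among the 602 single-gene entries tested, the difference of VTE6 was the 8th largest increase and the 13th largest change in either direction. The 3 genes had a median log2 difference of 0.12, against 0.01 over all entries, with single differences of 0.12, 0.06 and 0.91. VTE6 had been seen to be high in psae2 on these samples before it was chosen, so its position is a description.

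**Figure D2:**
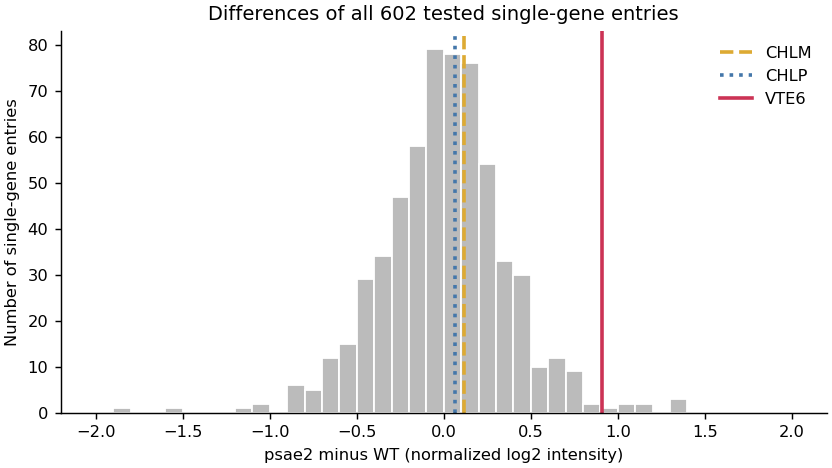
Histogram of psae2 minus WT in normalized log2 intensity over the 602 single-gene entries tested, with lines at CHLM (0.12), CHLP (0.06) and VTE6 (0.91). CHLM and CHLP lie in the centre of the distribution and VTE6 near its upper end.

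CHLP, the enzyme of new phytyl supply, did not pass the test. Its deposited intensity was 2.56 at the lowest, 2.98 at the median and 4.22 at the highest in the WT, and 2.79, 3.46 and 3.87 in psae2. The groups overlapped, with 0 of 6 psae2 samples above every WT sample, and WT sample 1 was the highest of all 12. On the deposited scale the means were 3.19 ± 0.610 and 3.40 ± 0.420 (SD, n = 6). Normalized log2 levels were 1.70 ± 0.16 for WT samples and 1.76 ± 0.16 for psae2 samples (SD, n = 6). The difference was 0.06 after quantile normalization, -0.10 after median centring of the arrays and -0.048 without numbers 3 and 4. Its limma adjusted p was 0.673 over 12 samples (0.836 for averaged pairs). With pairs averaged its 95% interval ran from 0.835 to 1.31-fold, so neither a modest increase nor a modest decrease lay outside it.

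The direction of CHLP was not shared by the pairs. It was 0.28 higher in psae2 with numbers 3 and 4, while the difference was -0.065 with numbers 1 and 2 and -0.026 with numbers 5 and 6. Pair means in the WT were 1.84, 1.64 and 1.61, highest with numbers 1 and 2. In psae2 they were 1.77, 1.92 and 1.59, highest with numbers 3 and 4. Numbers 5 and 6 gave the lowest level in both genotypes.

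CHLM, the methyltransferase step before the phytyl tail is added, did not pass either. Its deposited intensity was 0.318 at the lowest, 0.407 at the median and 0.503 at the highest in the WT, and 0.443, 0.483 and 0.574 in psae2. The groups overlapped, with 2 of 6 psae2 samples above every WT sample, and WT sample 4 stood highest in its group. Deposited means were 0.399 ± 0.0670 and 0.489 ± 0.0477 (SD, n = 6), and psae2 was the higher at 5 of 6 numbers. After normalization psae2 was the higher at 3 of 6 numbers, with levels of -1.25 ± 0.20 and -1.13 ± 0.28 on the log2 scale (SD, n = 6). The difference was 0.12 after quantile normalization (limma adjusted p = 0.578, or 0.785 for averaged pairs), 0.30 as deposited (adjusted p = 0.0685 in limma) and -0.088 without numbers 5 and 6. After median centring of the arrays, CHLM differed by 0.097 (limma adjusted p = 0.656). For VTE6 the difference was 1.01 as deposited and 0.81 after median centring (limma adjusted p = 0.00108). Array medians were higher in psae2 at 6 of 6 numbers, and whether they account for any part of the deposited differences was not tested. The 95% interval of CHLM with pairs averaged was 0.786 to 1.50-fold.

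The difference of CHLM lay in 1 pair. Numbers 5 and 6 were higher in psae2 by 0.60 and 0.44, whereas numbers 1 to 4 lay between -0.20 and 0.04. In the WT the pair means were -1.36, -1.01 and -1.37, with the highest level for numbers 3 and 4. In psae2 they were -1.46, -1.10 and -0.84, with the highest level for numbers 5 and 6. Whether the difference itself varied between pairs was not tested, because only 2 samples of each group share a pair and they may be repeats.

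**Figure D3:**
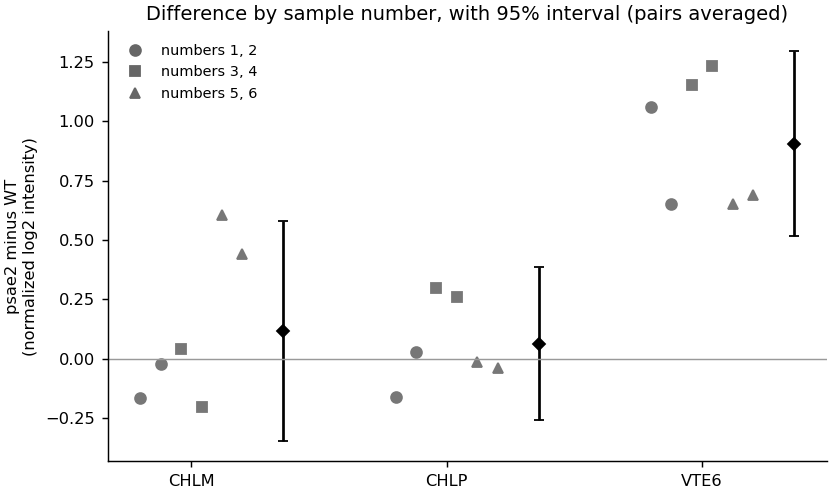
Difference between psae2 and WT in normalized log2 intensity at each of the 6 numbers, with marker shapes for the pairs of numbers, and the mean difference with its 95% interval from limma with pairs averaged (diamond and bar). All 6 differences of VTE6 lie between 0.65 and 1.23, CHLM is above 0.4 at numbers 5 and 6 alone, and CHLP is above 0.2 at numbers 3 and 4 alone.

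The variation of each gene over the 12 samples was divided into shares of its total sum of squares, as a description. For VTE6, 83.6% lay between the genotypes, 6.54% between the pairs, 4.73% in a genotype difference that varied between pairs and 5.11% between the 2 samples of a pair. For CHLM the genotype held 6.37%, the pairs 46.0% and the genotype by pair term 38.7%. For CHLP these shares were 4.57%, 37.9% and 27.4%, and a further 30.1% lay between the 2 samples of a pair, where WT samples 1 and 2 differed most. The medians over the 602 single-gene entries were 18.0% for genotype, 32.7% for pairs and 12.8% for genotype by pair. CHLM and CHLP thus had less of their variation between genotypes than the median gene, and VTE6 had more.

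**Figure D4:**
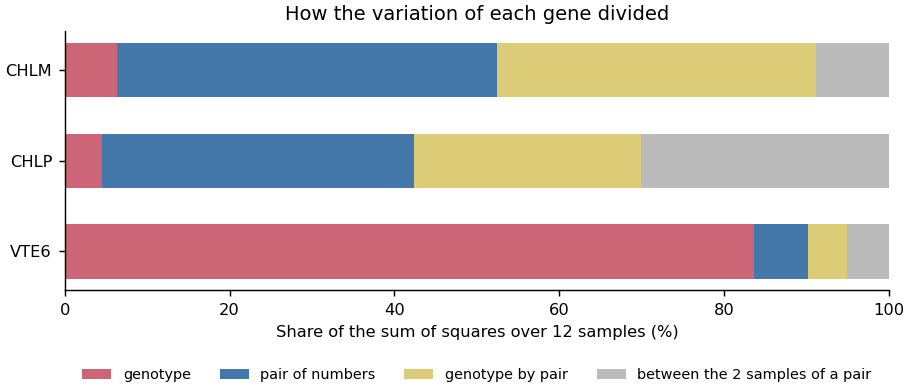
Stacked bars of the share (%) of each gene's sum of squares over 12 samples that lay between genotypes, between pairs of numbers, in the genotype by pair term and between the 2 samples of a pair. Genotype holds 83.6% for VTE6, 6.37% for CHLM and 4.57% for CHLP.

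The transcript taken for reuse was set against that for supply with the log2 ratio of VTE6 to CHLP within each sample. This ratio, on quantile-normalized values except where stated, is unaffected by a factor common to the array. Relative to the WT mean of this ratio, the WT samples ran from -0.40 over a median of 0.04 to 0.28. The psae2 samples ran from 0.44 over 0.89 to 1.01. The groups did not overlap, and psae2 sample 2 lay closest to the WT. The ratio was higher in psae2 by 0.84, with SDs of 0.25 in the WT and 0.21 in psae2 (n = 6). VTE6 was already known to lie apart in these samples and CHLP to differ little, so this value largely restates the difference of VTE6 and no p is given for it. Over all 3008 entries other than CHLP, the ratio to CHLP had groups that did not overlap in 6.42%, and in 2.49% with psae2 as the higher group. With the values as deposited the difference of the ratio was 0.91. A ratio within an array shows that the transcripts changed unequally, not that CHLP was constant.

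**Figure D5:**
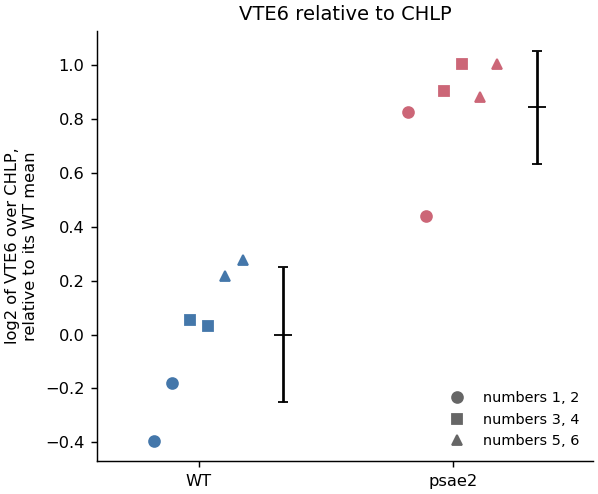
The log2 ratio of VTE6 to CHLP within each sample, relative to its WT mean, with marker shapes for the pairs of numbers and bars for the mean ± SD over 6 samples. The WT samples lie between -0.40 and 0.28 and the psae2 samples between 0.44 and 1.01.

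The ratio of VTE6 to CHLM, taken in the same way, was higher in psae2 by 0.79, with WT samples at -0.38 to 0.29 and psae2 samples at 0.32 to 1.20. The lowest psae2 sample lay just above the highest WT sample, and how many entries separate in a ratio to CHLM was not counted. The ratio of CHLP to CHLM differed by -0.054, with overlapping ranges of -0.41 to 0.37 in the WT and -0.56 to 0.38 in psae2. These last ratios are given as values with no test.

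Few of the other genes of these pathways could be read. Of 97 loci listed for chlorophyll synthesis, heme and bilins, chlorophyll breakdown, tocopherol and prenylquinones, plastid isoprenoid supply and carotenoids, 4 had a probe of their own, and these are the 3 enzymes and ZISO (Z-ISO), the zeta-carotene isomerase of carotenoid synthesis. Of the 4, 1 passed over 12 samples as higher in psae2 (VTE6, whose call was lost with the averaged pair as a block, adjusted p = 0.0553 in limma) and 0 as lower, where 22.3% of all entries passed, 11.9% as higher. So few genes allow no reading against that share. ZISO had a log2 difference of 0.03 with a 95% interval of -0.22 to 0.28 (limma adjusted p = 0.870, or 0.943 for averaged pairs). By list, 2 of the 30 listed loci of chlorophyll synthesis were measured, 1 of 19 of tocopherol and prenylquinone synthesis, 1 of 14 of carotenoid synthesis, and 0 of 16 of chlorophyll breakdown, 0 of 7 of heme and bilins and 0 of 11 of plastid isoprenoid supply. Outside the lists, and added after the values were seen, HEMA3, a glutamyl-tRNA reductase gene at the start of tetrapyrrole synthesis, had a log2 difference of -0.0039 with a 95% interval of -0.25 to 0.24 (limma adjusted p = 0.984). SIRB, sirohydrochlorin ferrochelatase of the siroheme branch, likewise added, had 0.43 with an interval of 0.083 to 0.78 and did not pass (limma adjusted p = 0.0725, or 0.262 for averaged pairs). A further 7 listed loci were listed only on probes shared with other genes and were not read. These include LIL3:1 and LIL3:2, light-harvesting-like proteins that bind geranylgeranyl reductase in the thylakoid, and HEME1 and HEME2, uroporphyrinogen decarboxylases. Of 4 seed and root marker genes, 0 had a probe of their own, so admixture of those tissues was not tested.

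Within the genotypes the 3 genes did not follow one another closely. The correlation of their deviations from the group mean over 12 samples was -0.28 for CHLM and CHLP, 0.17 for CHLM and VTE6 and 0.28 for CHLP and VTE6. For CHLP and VTE6 it was -0.40 among the 6 WT samples and 0.65 among the 6 psae2 samples. These samples share arrays and pairs, and the correlations are descriptions.

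The single-gene entries most like each enzyme were found from the same deviations among 601 others. Being the highest of 601 over samples that share pairs, these correlations are descriptions too. For CHLP the closest was PSBY, which encodes a small photosystem II protein (r = 0.89), followed by AT3G47650 and AT1G07970 (0.80 each). For CHLM they were AT1G31220 (0.92), AT1G02260 (0.90) and AT4G08630 (0.89), and for VTE6 AT5G52530 (0.87), AT2G35390 (0.77) and AT1G50510 (0.75). Of the 3 closest to VTE6, AT5G52530 and AT2G35390 did not pass (log2 differences -0.45 and -0.02), and AT1G50510 was lower in psae2 by 0.50 over 12 samples (log2 difference -0.50, limma adjusted p = 0.00377), but not with pairs averaged (0.163). PSBY had a log2 difference of 0.19 that did not pass (limma adjusted p = 0.132).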

How the data were processed

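The values are linear intensities as deposited by the authors, from 0 to 100, with 11.9% to 13.7% exact zeros per array. Array chemistry, background correction and scaling are not stated in the sources used here. Of the 36 values of the 3 genes, 0 were zero and 0 lay under the floor. Probe genes came from the platform annotation, and 690 of 692 single-gene probes matched the TAIR10.1 gene table. Values under the 5th percentile of an array's positive values were raised to it, and all values were log2-transformed and quantile-normalized. The 429 probes under this floor on all 12 arrays were left out. Single-gene probes of the same gene were then averaged, which gave 3009 entries. Differences were tested with limma 3.58.1 (lmFit, eBayes) in R 4.3.3 over all entries with Benjamini-Hochberg adjustment at 0.05, without covariates. Figures used matplotlib 3.10.9.

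Groups and numbers come from the titles. Same-numbered samples of WT and psae2 deviated together (r = 0.34 to 0.53 in 6 of 6 cases), a pairing read from the data. Within a group, r was 0.24 to 0.71 for numbers 1 and 2, 3 and 4, or 5 and 6, and -0.68 to -0.12 otherwise. The planned exact permutation test of the ratio of VTE6 to CHLP is not printed, because VTE6 was chosen with its difference known. The procedure was run on simulated data, where limits on false and found calls were set only for the fit with independent samples. That run is therefore no check of calls among samples that may be repeats. Members, lists, pairs and alternatives were chosen with earlier results of these data known. Named genes were the 3 members, list genes with their own probe, and the 3 entries most correlated with each member. No sequence table was used here.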

Additional observations from a re-analysis of the deposited data

Results flagged for a closer look

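Each gene and the ratio of VTE6 to CHLP was checked by genotype for a sample set apart from the other 5, with Dixon's ratio (8 sets), a check that chance alone trips in about 1 of 20 sets. It was tripped in 2 of the 8 sets. CHLP had a normalized log2 level of 2.01 in WT sample 1, against 1.57 to 1.67 for the remaining WT samples (Dixon's ratio 0.776). Without WT sample 1 the log2 difference of CHLP was 0.13 (limma adjusted p = 0.322). The log2 ratio of VTE6 to CHLP, relative to its WT mean, was 0.44 in psae2 sample 2 and 0.82 to 1.01 in the other psae2 samples (Dixon's ratio 0.679). Without psae2 sample 2 the ratio differed by 0.93 between the genotypes, and VTE6 itself by 1.01 (limma adjusted p = 8.71e-05).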

How the results depend on the processing

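VTE6 was higher in psae2 in 26 of 26 alternatives, by 0.76 to 1.01 on the log2 scale. It passed in 25 (limma adjusted p 8.03e-05 to 0.0553). Where only the dim-probe filter, the model, the averaging or the threshold changed, the difference stayed 0.91 and its direction could not differ. Fits with no averaging or block counted possible repeats as independent, so 25 passes overstate the support. Fits that allowed for pairs gave VTE6 a limma adjusted p of 0.0455 (averaged), 0.0143 (random blocks within genotype) and 0.0553 (averaged and blocked). With a replicate block for the averaged pair 0 of the 3 genes passed. VTE6 passed in 12 of 12 fits without 1 sample, so 1 member was called in each, but each fit kept the possible repeat of that sample. Its limma adjusted p was 0.00136 without numbers 1 and 2, 0.0175 without numbers 3 and 4 and 0.00481 without numbers 5 and 6. The replicate block over 12 samples, with VTE6 at an adjusted p of 0.000951, changed no other member's call. CHLM and CHLP passed in 0 of 26 alternatives. CHLM was -0.0876 without numbers 5 and 6, and CHLP -0.10 with median centring and -0.048 without numbers 3 and 4; the cause was not tested. The ratio of VTE6 to CHLP differed by 0.84 with pairs averaged too, a fit that cannot reach the threshold (smallest possible exact permutation p 0.1), and by 0.76 to 0.93 without 1 sample. The 671 calls over all entries became 1010 with the number as replicate block, 79 with pairs averaged and 44 with the pair as replicate block too. They became 181 with a random block, 306 at a threshold of 0.01 and 552 to 668 without 1 sample. Without a whole pair there were 669 calls (numbers 1 and 2 left out), 284 (numbers 3 and 4) and 516 (numbers 5 and 6). Of the 671 calls 53.4% were higher in psae2, against 84.0% of 846 calls as deposited and 40.9% of 707 calls with median centring. As deposited, the median entry differed by 0.17 and VTE6 by 1.01.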
